A study of Mus musculus with 15 samples.

Results

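The genes described here are 33 genes of the endoplasmic reticulum (ER), the compartment in which secreted and membrane proteins are folded. They comprise the chaperones, the sensors and transcription factors of the unfolded protein response, and genes of ER-associated degradation. They were chosen by name from 40174 gene symbols in the count tables. All 33 were found, Ero1lb under its symbol Ero1b, and all 33 passed the filter on low counts that left 17588 genes. The samples were left ventricles of C57BL/6 mice at 2 months, read by RNA sequencing of total RNA. WT carried no Rbm20 mutation by its label. G-line samples carried S639G and A-line samples S637A in Rbm20, a gene for a muscle RNA-binding protein that controls splicing of titin and other cardiac transcripts. In each line, HET was labelled +/- and HOM was labelled -/-.

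The labels name 5 groups of 3 libraries. Columns 2 and 3 of A-line HOM repeated the counts of WT 2 and 3 for all 40174 symbols, so that 13 distinct libraries remained. Each repeated library was used once, as WT, leaving 1 library for A-line HOM and 3 for every other group. Which of the names is right is not settled by the labels, and each test against WT depends on it. The spread of the other groups was used for the lone A-line HOM library. Separate animals are not stated for the libraries of a group, so the p-values describe the spread between samples that may be technical replicates. In whole tissue, fewer cells of a type and less RNA per cell cannot be told apart.

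Proteins enter the ER through the Sec61 channel and are folded there by Hspa5 (BiP), its partner Hsp90b1 (GRP94) and the lectins calnexin and calreticulin, while disulfide isomerases join cysteines. Misfolded proteins are sent back to the cytosol for degradation. When unfolded proteins accumulate, the membrane sensors Ern1 (IRE1), Eif2ak3 (PERK) and Atf6 are activated. IRE1 splices Xbp1 mRNA into the form that encodes the active factor, PERK slows translation and favours Atf4, and Atf6 is cleaved to release a transcription factor. XBP1 and ATF6 act on chaperone and degradation genes, many through the ER stress response element (ERSE). In the heart, calreticulin is also a calcium-binding protein of the ER lumen, and the sarcoplasmic reticulum is a specialised form of this compartment. Gene totals do not show Xbp1 splicing, Atf6 cleavage or kinase activity.

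Libraries held 12959087 to 29436407 counts. Levels are in CPM, counts scaled to library size with TMM factors, which are not divided by gene length, so they are compared between samples and not between genes. The 33 genes together took 2430.2 to 2647 CPM in WT, 2288 to 2334 CPM in G-line HET, 2298 to 2537 CPM in G-line HOM, 2143 to 2181 CPM in A-line HET and 2108 CPM in A-line HOM. Cardiomyocyte markers were abundant in all libraries, at a summed level of 138420.0 to 173690.0 CPM. The share of mitochondrial ribosomal RNA was 20.2 to 23.4% in WT libraries and 10.8 to 17.1% in mutants. A refit left out 343 mitochondrial, ribosomal RNA, Xist and Y-linked symbols together. G-line HOM then still had 6 higher and 6 lower genes of the 33, and A-line HET still had 7 lower. Lower calls for G-line HET fell from 5 to 4, beside 1 higher as before. Between the G-line groups, 2 genes were called in place of 3. The share of mitochondrial ribosomal RNA was not tested by itself. Atrial muscle markers, 7 genes that include Nppa, summed to 4721 to 8112 CPM in G-line HOM, 84.1 to 2519 CPM in WT, 987 to 3009.7 CPM in G-line HET, 961 to 4155 CPM in A-line HET and 4368 CPM in A-line HOM. Nppa alone was at 64.2, 1194 and 87.0 CPM in WT, 2339, 962 and 2977 CPM in G-line HET and 7881, 6818 and 4671 CPM in G-line HOM, and 936, 2584 and 3522 CPM in A-line HET and 4327 CPM in A-line HOM. Myl7, an atrial light chain, was highest in WT replicate 2 (524 CPM), then A-line HET replicate 3 (240.1 CPM) and G-line HOM replicate 1 (45.8 CPM), with at most 3.43 CPM elsewhere. Of 6 atrial markers tested, 1 was higher and 1 lower in G-line HOM, beside 13.1% and 13.3% of all genes. The sum in G-line HOM was mostly Nppa, and 4 of the 6 markers had log2 fold changes below 0, with a median of -2.84. Without the 3 libraries highest in Myl7, 9 of the 33 genes were called in G-line HOM in place of 12. The part of the atrial markers was not otherwise tested.

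In G-line HOM, the ER genes did not move as a block. The sensors Atf6 and Eif2ak3, the isomerase P4hb, the co-chaperone Dnajc10 and the degradation genes Edem1 and Derl2 were higher than in WT. The chaperones Hspa5, Hsp90b1, Hyou1, Canx and Calr and the degradation adaptor Sel1l were lower. This made 6 genes higher and 6 lower at an adjusted p under 0.05 (edgeR's quasi-likelihood test, Benjamini-Hochberg adjusted over 17588 genes). The 12 genes are 36.4% of the 33, beside 26.4% of all genes called in that comparison (13.1% higher and 13.3% lower). The median log2 fold change of the 33 was 0.13, beside 0.01 over all genes, and 20 of 33 were above 0, beside 50.5% of all genes. Libraries of the 2 groups did not overlap in 18 of the 33 genes, 10 above WT and 8 below, beside 41.7% of all genes (20.6% above).

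The other mutant groups had more lower than higher calls. In G-line HET, Atf6 was higher and Canx, Hsp90b1, Calr, Sel1l and Pdia6 were lower, which is 18.2% of the 33 beside 7.52% of all genes (3.97% higher and 3.54% lower). In A-line HET, 7 genes were lower (Manf, Hspa5, Canx, Calr, Hyou1, Hsp90b1 and Sel1l) and none higher, 21.2% of the 33 beside 7.96% of all genes (3.99% higher and 3.97% lower). In the A-line HOM library, 5 were lower (Calr, Hyou1, Hsp90b1, Canx and Sel1l) and none higher, 15.2% beside 4.68% of all genes (2.82% higher and 1.86% lower). Median log2 fold changes of the 33 were -0.11 in G-line HET, -0.09 in A-line HET and -0.14 in A-line HOM, beside -0.01, 0.02 and -0.01 over all genes. All of these comparisons share the 3 WT libraries. Libraries did not overlap with WT for 4 of the 33 above and 12 below in G-line HET, beside 31.5% of all genes. For A-line HET the counts were 3 and 12, beside 26.1%, and for the A-line HOM library 7 and 17, beside 67.8%. How many of all genes lay beyond WT in every mutant library was not counted.

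**Figure D1:**
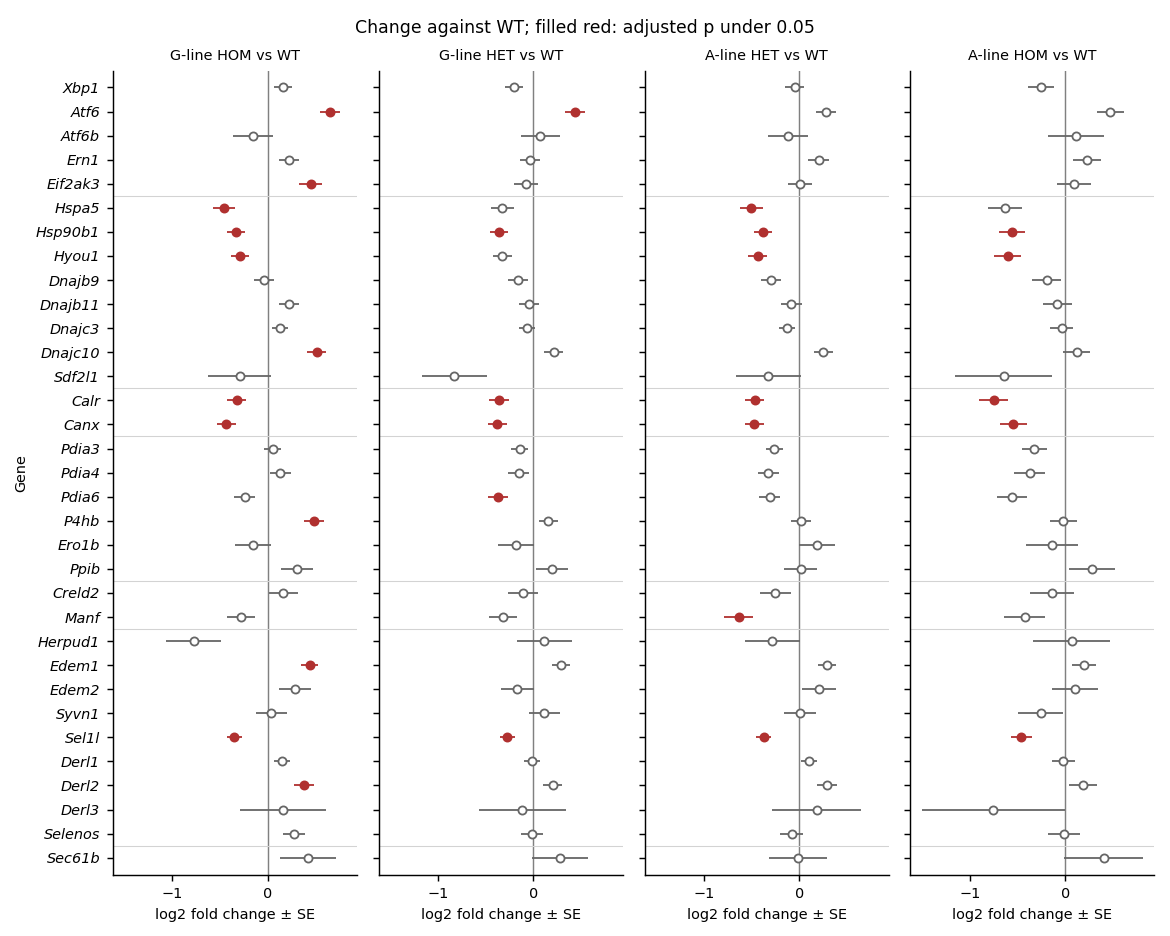
Log2 fold change against WT with its standard error (horizontal axis) for the 33 genes (vertical axis), 1 panel per mutant group, with filled red points for genes called at an adjusted p under 0.05. In G-line HOM called genes lie on both sides of 0 (6 higher, 6 lower), and in A-line HET the 7 called genes all lie below it.

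These counts depend on the 2 shared libraries and on scaling. With the pair left out, 7 of the 33 were called in G-line HOM and none in G-line HET or A-line HET. With the pair taken as A-line HOM, a single WT library remained and 1 gene, Dnajc10, was called in G-line HOM. Without TMM factors the median of all genes in G-line HOM shifted to 0.17, and the split of the 33 became 12 higher and 1 lower in place of 6 and 6. In A-line HET the median of all genes then shifted to 0.15 and that of the 33 to 0.04, and the split became 3 higher and 4 lower in place of 0 and 7. In A-line HOM it became 1 higher and 4 lower in place of 0 and 5. In G-line HET, no single omission left more than 2 genes called: 1 without WT replicate 1, 2 without WT replicate 2, 1 without WT replicate 3, 0 without G-line HET replicate 1 or 2, and 1 without replicate 3. In A-line HET the 7 became 1 without WT replicate 1, 4 without WT replicate 3, 11 (3 higher and 8 lower) without A-line HET replicate 1 and 1 without A-line HET replicate 3. In A-line HOM the 5 became 1, 3 and 2 without WT replicates 1, 2 and 3.

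In the Hsp70 and Hsp90 system of the lumen, 3 of 8 genes were lower and 1 higher in G-line HOM. Of all genes, 13.3% were lower and 13.1% higher. Hspa5, the Hsp70 that binds unfolded chains and holds the stress sensors inactive, was at 225, 173 and 186 CPM in WT, with 163, 148 and 155 CPM in G-line HET and 136, 150.2 and 139 CPM in G-line HOM. In the A-line it was at 130.02, 163 and 119 CPM in A-line HET and 126 CPM in A-line HOM. All 10 mutant libraries lay below the lowest WT library, and WT replicate 1 stood highest. The log2 fold change was -0.46 ± 0.12, adjusted p = 0.0107, in G-line HOM and -0.50 ± 0.12, adjusted p = 0.0187, in A-line HET. Values in G-line HET (-0.33 ± 0.12, adjusted p = 0.113) and A-line HOM (-0.63 ± 0.18, adjusted p = 0.0552) missed the threshold. The call in G-line HOM missed the threshold on omission of WT replicate 1 (adjusted p = 0.0643), and that in A-line HET without WT replicate 1 (adjusted p = 0.102), WT replicate 3 (adjusted p = 0.0505) or A-line HET replicate 3 (adjusted p = 0.0934).

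Hsp90b1, the Hsp90 of the ER, was at 366, 316 and 292 CPM in WT. It was at 258, 249 and 251 CPM in G-line HET and 233, 279 and 262 CPM in G-line HOM, and at 250.03, 257 and 242 CPM in A-line HET and 220.4 CPM in A-line HOM. Every mutant library was again below the WT range. Log2 fold changes were -0.33 ± 0.10, adjusted p = 0.0194, in G-line HOM, -0.36 ± 0.10, adjusted p = 0.0347, in G-line HET, -0.38 ± 0.10, adjusted p = 0.0266, in A-line HET and -0.56 ± 0.14, adjusted p = 0.0369, in A-line HOM. In G-line HOM, omission of WT replicate 1 (adjusted p = 0.108) or G-line HOM replicate 1 (adjusted p = 0.0801) ended the call. Leaving out WT replicate 1 (adjusted p = 0.172), WT replicate 2 (adjusted p = 0.0557), G-line HET replicate 1 (adjusted p = 0.107), G-line HET replicate 2 (adjusted p = 0.0908) or G-line HET replicate 3 (adjusted p = 0.101) ended the call in G-line HET, leaving out WT replicate 1 (adjusted p = 0.138), A-line HET replicate 2 (adjusted p = 0.0632) or A-line HET replicate 3 (adjusted p = 0.104) that in A-line HET, and leaving out WT replicate 1 (adjusted p = 0.0888) or WT replicate 2 (adjusted p = 0.0549) that in A-line HOM.

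Hyou1, an Hsp70-like exchange factor for Hspa5, was at 59.4, 52.3 and 54.7 CPM in WT, 46.8, 43.8 and 42.1 CPM in G-line HET and 44.9, 51.2 and 40.1 CPM in G-line HOM, and 40.8, 43.6 and 38.5 CPM in A-line HET and 36.5 CPM in A-line HOM. It too lay below WT in each mutant library. It fell by 0.29 ± 0.10 on the log2 scale in G-line HOM (adjusted p = 0.0407), by 0.44 ± 0.10 in A-line HET (adjusted p = 0.0143) and by 0.60 ± 0.14 in A-line HOM (adjusted p = 0.0298). In G-line HET the log2 fold change was -0.33 ± 0.10, adjusted p = 0.0558. The G-line HOM call did not hold without WT replicate 1 (adjusted p = 0.151), WT replicate 3 (adjusted p = 0.0845), G-line HOM replicate 1 (adjusted p = 0.0878) or G-line HOM replicate 3 (adjusted p = 0.139). The A-line HET call did not hold without WT replicate 1 (adjusted p = 0.0714) or A-line HET replicate 3 (adjusted p = 0.0676), nor the A-line HOM call without WT replicate 1 (adjusted p = 0.0769) or WT replicate 3 (adjusted p = 0.0671).

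Dnajc10 (ERdj5), a J protein with reductase activity that acts in degradation, went the other way. It was at 55.4, 63.9 and 56.5 CPM in WT and at 69.0, 65.7 and 68.8 CPM in G-line HET and 82.6, 85.8 and 83.1 CPM in G-line HOM, so that the 3 G-line HOM libraries stood above all others. A-line libraries were at 58.4, 72.1 and 78.7 CPM in A-line HET and 63.6 CPM in A-line HOM. Its log2 fold change in G-line HOM was 0.52 ± 0.10, adjusted p = 0.00173, and it stayed called in that comparison under every alternative tried, with a highest adjusted p of 0.0405. Against WT it was not called in G-line HET (0.21 ± 0.10, adjusted p = 0.235) or A-line HET (0.25 ± 0.10, adjusted p = 0.155). The other J proteins and Sdf2l1, a cofactor of Hspa5, were not called in any comparison. In G-line HOM their log2 fold changes were -0.04 for Dnajb9, 0.22 for Dnajb11, 0.13 for Dnajc3 and -0.29 for Sdf2l1, the last on a level of 0.648 to 2.36 CPM.

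The lectin chaperones bind sugar-bearing chains and hold them until they are folded, calnexin (Canx) in the membrane and calreticulin (Calr) in the lumen. Canx was at 463, 404 and 415 CPM in WT, 327, 340.3 and 319 CPM in G-line HET and 298, 314 and 339 CPM in G-line HOM, and 346, 301.5 and 277 CPM in A-line HET and 293 CPM in A-line HOM. Calr was at 234, 199 and 201 CPM in WT, 168, 165 and 161 CPM in G-line HET and 159, 183 and 164 CPM in G-line HOM, and 170.0, 155 and 134 CPM in A-line HET and 126 CPM in A-line HOM. For both genes the WT libraries lay above all 10 mutant libraries. Canx had log2 fold changes of -0.43 ± 0.10, adjusted p = 0.00448, in G-line HOM, -0.38 ± 0.10, adjusted p = 0.0293, in G-line HET, -0.47 ± 0.10, adjusted p = 0.0086, in A-line HET and -0.54 ± 0.14, adjusted p = 0.0431, in A-line HOM. For Calr they were -0.33 ± 0.10, adjusted p = 0.026, in G-line HOM, -0.36 ± 0.10, adjusted p = 0.0419, in G-line HET, -0.47 ± 0.10, adjusted p = 0.0111, in A-line HET and -0.75 ± 0.15, adjusted p = 0.0105, in A-line HOM. The WT libraries are common to these comparisons, so the values are not independent of each other.

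Omission of single libraries left the Canx call in G-line HOM and the Calr call in A-line HOM in place. The Calr call in G-line HOM missed the threshold on omission of WT replicate 1 (adjusted p = 0.126), G-line HOM replicate 1 (adjusted p = 0.0879) or G-line HOM replicate 3 (adjusted p = 0.0609). In A-line HET, the Calr call missed the threshold on omission of WT replicate 1 (adjusted p = 0.0619) or A-line HET replicate 3 (adjusted p = 0.0582) and the Canx call without WT replicate 1 (adjusted p = 0.0514) or A-line HET replicate 3 (adjusted p = 0.0513). In G-line HET, the threshold was missed for Canx on omission of WT replicate 1 (adjusted p = 0.138), WT replicate 3 (adjusted p = 0.0752), G-line HET replicate 1 (adjusted p = 0.112), G-line HET replicate 2 (adjusted p = 0.0555) or G-line HET replicate 3 (adjusted p = 0.102) and for Calr on omission of WT replicate 1 (adjusted p = 0.189), WT replicate 3 (adjusted p = 0.0805), G-line HET replicate 1 (adjusted p = 0.118), G-line HET replicate 2 (adjusted p = 0.0934) or G-line HET replicate 3 (adjusted p = 0.128). The Canx call in A-line HOM missed the threshold on omission of WT replicate 1 (adjusted p = 0.107), WT replicate 2 (adjusted p = 0.0521) or WT replicate 3 (adjusted p = 0.0887).

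As a sum, markers of smooth muscle and pericytes moved in the same direction as these chaperones. Their summed level over 8 genes was 1656 to 1728 CPM in WT, 1146 to 1348 CPM in G-line HET, 872 to 1201 CPM in G-line HOM, 1085 to 1297 CPM in A-line HET and 1105 CPM in A-line HOM. Tagln, which marks smooth muscle, had no count in 8 of the 13 libraries. Of 7 tested markers, 3 were lower in G-line HOM, 2 in G-line HET and 1 in A-line HET, and none was higher. Of all genes, 13.3%, 3.54% and 3.97% were lower in these groups. Not every marker fell: 3 of the 7 had log2 fold changes above 0 in G-line HOM, 1 in G-line HET and 3 in A-line HET. Cardiomyocyte markers were lower for 7 of 12 genes in G-line HOM (58.3%), beside 13.3% of all genes. Their summed level there was 150370.0 to 157890.0 CPM, beside 138420.0 to 161380.0 CPM in WT. Endothelial markers, 8 genes, summed to 826 to 851 CPM in WT, 589.8 to 722 CPM in G-line HET, 685 to 1069 CPM in G-line HOM, 666 to 815 CPM in A-line HET and 665 CPM in A-line HOM. Of these, 1 of 8 was lower in G-line HOM (12.5%, near the 13.3% of all genes). In G-line HET 2 were lower and in A-line HET 1, beside 3.54% and 3.97% of all genes, and none was higher. The part of these markers in the chaperone values was not tested.

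**Figure D2:**
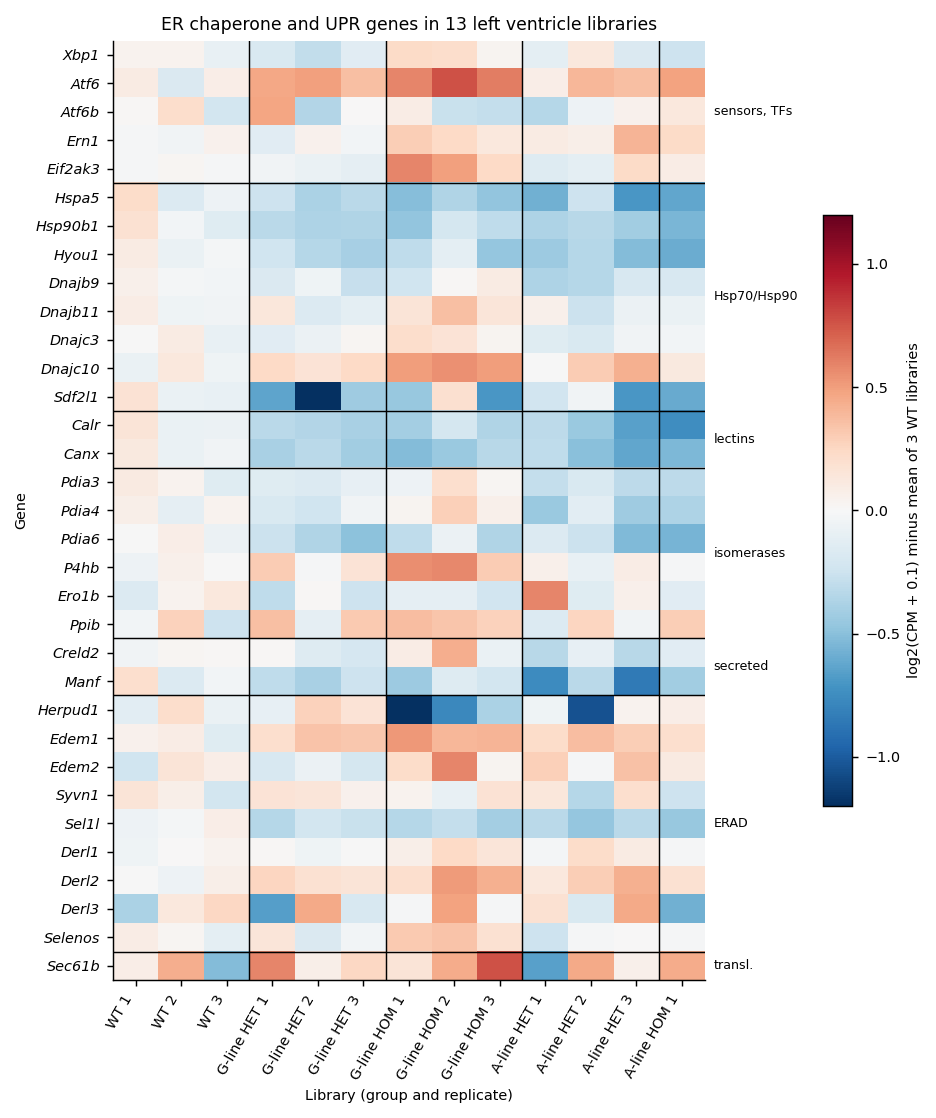
Heat map of the 33 genes (rows, by role) in the 13 libraries (columns, by group), coloured by log2(CPM + 0.1) minus the mean of the 3 WT libraries, with the colour scale limited at 1.2 in either direction. Canx, Calr, Hsp90b1, Hspa5, Hyou1 and Sel1l are below WT in every mutant library, while Atf6, Dnajc10 and P4hb are highest in G-line HOM. The share of all genes with such patterns was not counted.

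The promoters of these chaperones are shown because they hold the ERSE, the element named above. Windows from 250 bases before to 50 after the transcription start were available for 29 of the 33 genes from RefSeq (GRCm38.p6, an earlier build than that used for the counts), with a pair of windows for Derl2 and none for Atf6, Hyou1, Manf and Derl1. Both strands were searched for the exact ERSE, CCAAT, any 9 bases and CCACG. It was found in windows of 10 of these 29 genes, and in 37 of 27025 genes with a window (0.137%). A match is a description of these letters and not evidence of binding. The matches follow, 5′ to 3′ along the strand of the match, with the fixed letters in capitals:
Hspa5: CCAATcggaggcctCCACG
Calr: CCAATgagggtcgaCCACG
Derl3: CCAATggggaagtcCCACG
Hsp90b1 upstream: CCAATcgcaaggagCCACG
Hsp90b1 downstream: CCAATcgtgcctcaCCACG
Canx: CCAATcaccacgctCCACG
Pdia6: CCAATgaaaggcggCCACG
Ero1b: CCAATgaggcgggaCCACG
Dnajc3: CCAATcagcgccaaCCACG
Creld2: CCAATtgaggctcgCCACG
Syvn1: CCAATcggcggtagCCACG

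The 250 bases before the start are printed for the 4 lower chaperones that hold an ERSE, along the strand of the gene, with the match in capitals on whichever strand it was found. Canx lies at chr11:50325674-50325923 (minus strand), Hspa5 at chr2:34771840-34772089 (plus strand), Hsp90b1 at chr10:86705445-86705694 (minus strand) and Calr at chr8:84846932-84847181 (minus strand), all in GRCm38.p6.
Canx: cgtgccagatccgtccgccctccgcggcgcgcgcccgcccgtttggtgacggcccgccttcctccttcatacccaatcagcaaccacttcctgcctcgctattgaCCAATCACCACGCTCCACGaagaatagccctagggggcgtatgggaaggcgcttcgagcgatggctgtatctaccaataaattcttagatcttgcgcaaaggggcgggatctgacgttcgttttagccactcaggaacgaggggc
Hspa5: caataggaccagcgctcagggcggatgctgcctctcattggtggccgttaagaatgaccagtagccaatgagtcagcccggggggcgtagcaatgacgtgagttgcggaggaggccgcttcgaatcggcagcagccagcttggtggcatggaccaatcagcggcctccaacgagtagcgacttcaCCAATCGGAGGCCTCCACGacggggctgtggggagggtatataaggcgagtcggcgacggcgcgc
Hsp90b1: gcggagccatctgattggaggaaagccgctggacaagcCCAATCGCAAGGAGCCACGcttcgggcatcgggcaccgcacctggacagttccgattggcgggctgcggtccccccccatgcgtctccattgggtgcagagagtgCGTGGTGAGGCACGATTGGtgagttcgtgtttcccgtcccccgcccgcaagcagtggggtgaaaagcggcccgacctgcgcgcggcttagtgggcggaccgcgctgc
Calr: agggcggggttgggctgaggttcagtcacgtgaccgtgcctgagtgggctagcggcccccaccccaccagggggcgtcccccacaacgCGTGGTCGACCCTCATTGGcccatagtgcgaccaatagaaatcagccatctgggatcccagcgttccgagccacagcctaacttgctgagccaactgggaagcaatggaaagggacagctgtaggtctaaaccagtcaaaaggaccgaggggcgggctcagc

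The ERSE of Hspa5 began 65 bases before the start, that of Canx 145 and that of Calr 162. Hsp90b1 held a pair of matches, on opposite strands, which began 212 and 107 bases before the start. Of the 10 genes with an ERSE, 4 were lower and 0 higher in G-line HOM, with a median log2 fold change of -0.20 (range -0.46 to 0.17). Of all genes, 13.3% were lower there. In G-line HET and A-line HET, 4 of the 10 were lower in each, at medians of -0.25 and -0.28, beside 3.54% and 3.97% of all genes. In the 1 library of A-line HOM all 10 were below 0, with a median of -0.55, while 48.5% of all genes were above 0. Since these chaperones were among the lower genes already known when the element was searched, the counts here are a description and support nothing further. Presence of an ERSE was not the same as a lower level: Derl3, Dnajc3, Creld2 and Syvn1 hold one and had log2 fold changes of 0.16, 0.13, 0.17 and 0.04 in G-line HOM, none of them called.

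Further elements were searched in the same windows on both strands. ERSE-II (ATTGG, any 1 base, CCACG) was in the windows of Herpud1 and Dnajb11 and in 0.0444% of all genes with a window. TGACGTGG, the core of the unfolded protein response element, was in no window of the 29 genes and in 0.714% of all genes with a window, and TGATGCAAT, an element of the ATF4 type, in no window of the 29 and in 0.222%. No overlap between different motifs occurred in the windows of the 29 genes.

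**Figure D3:**
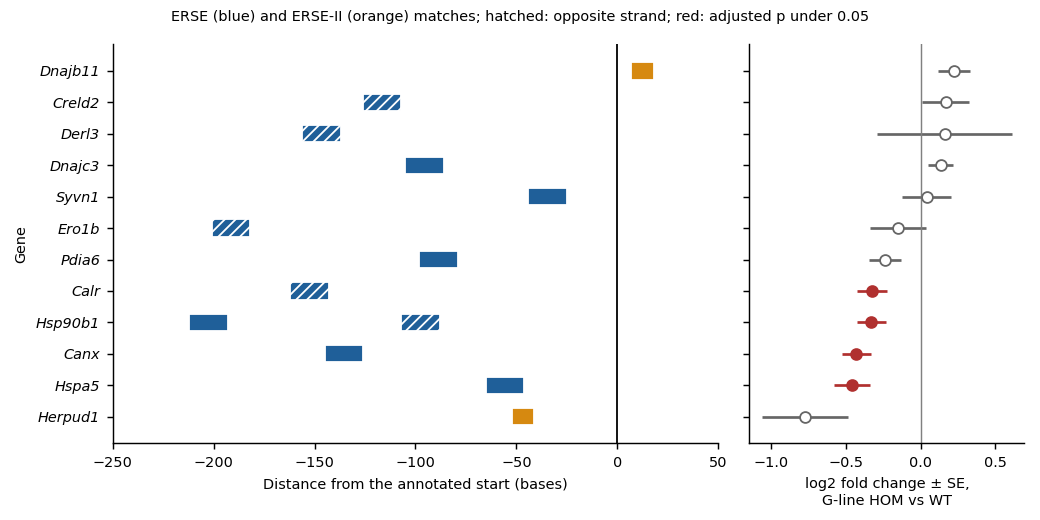
Positions of ERSE and ERSE-II matches (horizontal axis, bases from the transcription start) in the windows of the genes that hold one (vertical axis), beside the log2 fold change ± SE in G-line HOM against WT. ERSE is blue, ERSE-II orange, hatching marks the opposite strand, and red points are called. The 4 ERSE genes called lower are Canx, Hspa5, Hsp90b1 and Calr.

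Among the sensors and transcription factors, Atf6 changed most in G-line HOM. It was at 196, 162 and 193 CPM in WT, 253, 259 and 236 CPM in G-line HET and 276, 312 and 280.4 CPM in G-line HOM, and 194, 241 and 236 CPM in A-line HET and 255 CPM in A-line HOM. All G-line libraries exceeded the WT range, and G-line HOM stood highest. The log2 fold change was 0.65 ± 0.10, adjusted p = 0.000411, in G-line HOM and 0.44 ± 0.10, adjusted p = 0.0199, in G-line HET, where the call missed the threshold on omission of WT replicate 2 (adjusted p = 0.0734), WT replicate 3 (adjusted p = 0.0531), G-line HET replicate 1 (adjusted p = 0.0817) or G-line HET replicate 2 (adjusted p = 0.0628). A-line HET (0.28 ± 0.10, adjusted p = 0.122) and A-line HOM (0.47 ± 0.14, adjusted p = 0.0772) were not called.

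Eif2ak3, which encodes PERK, was at 14.1, 14.5 and 14.1 CPM in WT and at 13.8, 13.4 and 13.2 CPM in G-line HET and 21.4, 20.1 and 16.8 CPM in G-line HOM, with 12.8, 13.1 and 16.7 CPM in A-line HET and 15.1 CPM in A-line HOM. The 3 G-line HOM libraries were above all others, with A-line HET replicate 3 closest. It was higher in G-line HOM than in WT (0.45 ± 0.12, adjusted p = 0.0135) and than in G-line HET (0.53 ± 0.12, adjusted p = 0.0128). The call against WT missed the threshold on omission of G-line HOM replicate 1 (adjusted p = 0.0582), and that against G-line HET without G-line HOM replicate 2 (adjusted p = 0.0509).

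Xbp1, the transcript spliced by IRE1, was at 46.4, 46.2 and 42.4 CPM in WT, 39.5, 36.6 and 40.8 CPM in G-line HET and 52.6, 52.2 and 46.0 CPM in G-line HOM, and 41.4, 49.0 and 39.9 CPM in A-line HET and 37.7 CPM in A-line HOM. The G-line HOM libraries were above all G-line HET libraries, and 1 of them lay within the WT range. It was not called against WT (0.16 ± 0.10, adjusted p = 0.242) and was higher than in G-line HET (0.37 ± 0.10, adjusted p = 0.021), a call that missed the threshold on omission of G-line HET replicate 1 (adjusted p = 0.057), G-line HET replicate 2 (adjusted p = 0.0837), G-line HOM replicate 1 (adjusted p = 0.065) or G-line HOM replicate 2 (adjusted p = 0.0772). Ern1, the IRE1 kinase and nuclease, was at 20.1, 19.7 and 20.9 CPM in WT, 18.4, 21.0 and 19.8 CPM in G-line HET and 24.9, 23.9 and 22.1 CPM in G-line HOM, and 21.7, 21.3 and 26.9 CPM in A-line HET and 23.7 CPM in A-line HOM. It was not called in any comparison (G-line HOM against WT 0.22 ± 0.11, adjusted p = 0.142), although all 3 G-line HOM libraries lay above WT. Atf6b, the paralog of Atf6, was at 7.21, 8.25 and 6.09 CPM in WT, 9.91, 5.57 and 7.14 CPM in G-line HET and 7.60, 5.89 and 5.82 CPM in G-line HOM, and 5.59, 6.82 and 7.39 CPM in A-line HET and 7.77 CPM in A-line HOM, with overlapping groups (-0.15 ± 0.21, adjusted p = 0.636 in G-line HOM). In all, 2 of the 5 sensors and factors were higher in G-line HOM, beside 13.1% of all genes. In G-line HET it was 1, beside 3.97%, and in A-line HET none, beside 3.99%.

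**Figure D4:**
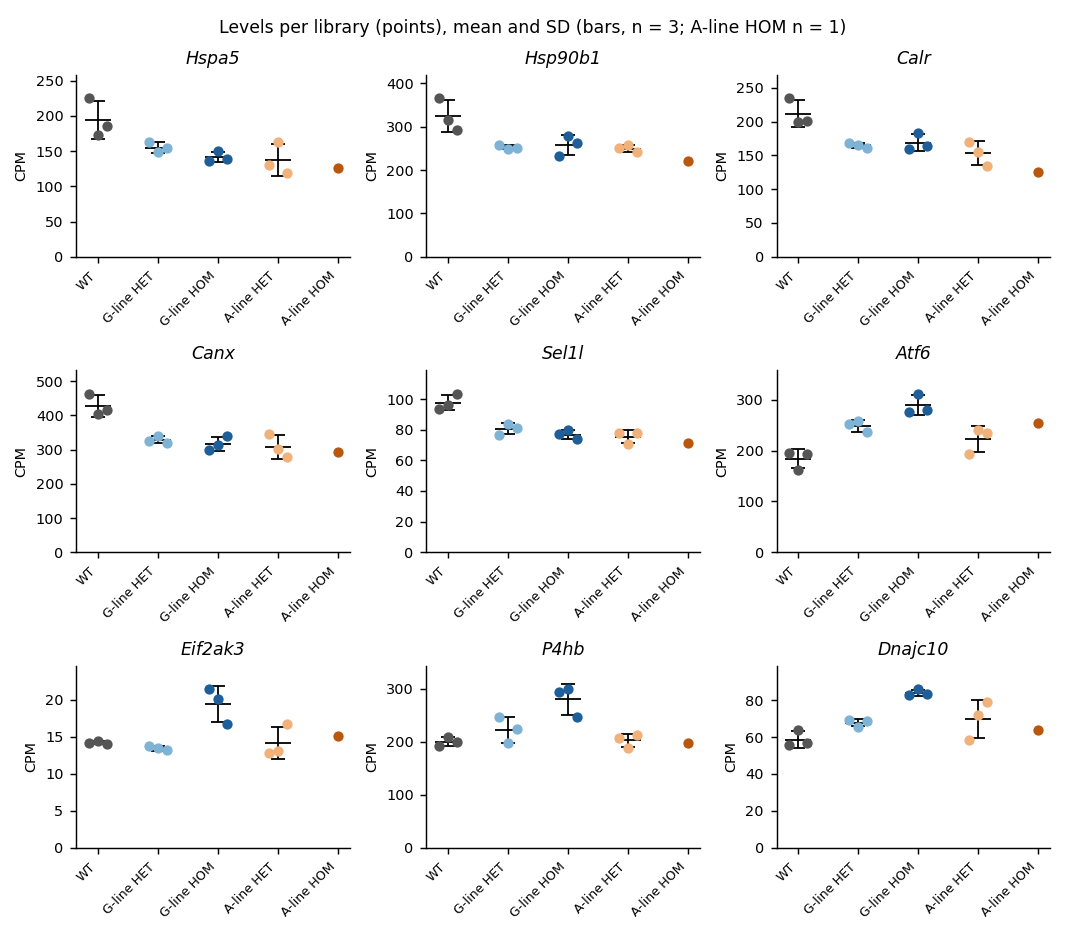
CPM in each library (points) with the group mean and SD (bars, n = 3, none for the 1 A-line HOM library) for 9 genes, 1 panel each, with CPM on the vertical axis and the 5 groups on the horizontal axis. Canx, Calr, Hspa5 and Hsp90b1 show WT above every mutant library, and Atf6 shows G-line HOM (276 to 312 CPM) above WT (162 to 196 CPM).

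The disulfide and proline isomerases form and rearrange disulfide bonds or turn prolyl bonds. P4hb, an isomerase that is also the beta subunit of collagen prolyl 4-hydroxylase, was at 192, 209 and 199 CPM in WT, 247, 198 and 224 CPM in G-line HET and 294, 299 and 247 CPM in G-line HOM, and 208, 188 and 212 CPM in A-line HET and 197 CPM in A-line HOM. The G-line HOM libraries were the 3 highest of the 13, but replicate 3 (246.9 CPM) barely exceeded G-line HET replicate 1 (246.6 CPM). It was higher in G-line HOM than in WT (0.49 ± 0.10, adjusted p = 0.00278) and than in G-line HET (0.33 ± 0.10, adjusted p = 0.0433), the latter call missing the threshold on omission of G-line HET replicate 2 (adjusted p = 0.17), G-line HET replicate 3 (adjusted p = 0.0999), G-line HOM replicate 1 (adjusted p = 0.111) or G-line HOM replicate 2 (adjusted p = 0.152). Fibroblast markers, whose cells make collagen, were higher for 6 of 12 genes in G-line HOM (50%), beside 13.1% of all genes. Their summed level there was 2727 to 3885 CPM, against 1098 to 1931 CPM in WT. The sum was 1569 to 2693 CPM in G-line HET, 1605 to 2593 CPM in A-line HET and 1789 CPM in A-line HOM. Its part in the level of P4hb was not tested.

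Pdia6, an isomerase that associates with Hspa5, was at 67.5, 71.3 and 64.3 CPM in WT, 56.4, 52.7 and 48.1 CPM in G-line HET and 54.9, 64.2 and 52.8 CPM in G-line HOM, and 60.5, 56.4 and 46.9 CPM in A-line HET and 46.0 CPM in A-line HOM. It was just inside the threshold in G-line HET, at a log2 fold change of -0.37 ± 0.11 and an adjusted p of 0.0499997, and was not called in G-line HOM (-0.24 ± 0.11, adjusted p = 0.115), A-line HET (-0.31 ± 0.11, adjusted p = 0.0975) or A-line HOM (-0.56 ± 0.16, adjusted p = 0.0598). The G-line HET call missed the threshold on omission of WT replicate 1 (adjusted p = 0.136), WT replicate 2 (adjusted p = 0.123), WT replicate 3 (adjusted p = 0.0934), G-line HET replicate 1 (adjusted p = 0.0856), G-line HET replicate 2 (adjusted p = 0.103) or G-line HET replicate 3 (adjusted p = 0.176). Pdia3, the partner of the lectins, Pdia4, the oxidase Ero1b and the cyclophilin Ppib were not called in any comparison. Their log2 fold changes in G-line HOM were 0.06, 0.13, -0.15 and 0.31.

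Genes of ER-associated degradation went both ways. Edem1, which helps to pass misfolded glycoproteins on for degradation, was at 24.9, 25.5 and 21.6 CPM in WT, 27.5, 30.3 and 29.97 CPM in G-line HET and 34.3, 31.5 and 31.7 CPM in G-line HOM, and 27.8, 30.8 and 29.5 CPM in A-line HET and 27.5 CPM in A-line HOM. Each mutant library was above the highest WT library. It was higher in G-line HOM (0.44 ± 0.09, adjusted p = 0.00274), while G-line HET (0.29 ± 0.09, adjusted p = 0.0739) and A-line HET (0.29 ± 0.09, adjusted p = 0.0699) were not called. Derl2, a membrane component of the export machinery, was at 26.0, 24.9 and 27.3 CPM in WT, 31.2, 29.7 and 29.1 CPM in G-line HET and 29.96, 37.1 and 35.1 CPM in G-line HOM, and 28.5, 32.0 and 35.1 CPM in A-line HET and 29.7 CPM in A-line HOM. It was likewise above WT in each mutant library and called in G-line HOM (0.38 ± 0.10, adjusted p = 0.012), a call that missed the threshold on omission of G-line HOM replicate 2 (adjusted p = 0.064).

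Sel1l, the adaptor that keeps the ubiquitin ligase Syvn1 (HRD1) active, was at 93.5, 96.3 and 103 CPM in WT, 76.8, 84.0 and 81.1 CPM in G-line HET and 76.9, 79.8 and 73.7 CPM in G-line HOM, and 77.9, 70.6 and 77.8 CPM in A-line HET and 71.1 CPM in A-line HOM. All mutant libraries lay below the WT range. Log2 fold changes were -0.35 ± 0.08, adjusted p = 0.00457, in G-line HOM, -0.28 ± 0.08, adjusted p = 0.0454, in G-line HET, -0.37 ± 0.08, adjusted p = 0.00973, in A-line HET and -0.46 ± 0.11, adjusted p = 0.0357, in A-line HOM. No single omission ended the G-line HOM call. The G-line HET call missed the threshold on omission of WT replicate 1 (adjusted p = 0.0835), WT replicate 2 (adjusted p = 0.074), WT replicate 3 (adjusted p = 0.176), G-line HET replicate 1 (adjusted p = 0.188), G-line HET replicate 2 (adjusted p = 0.0637) or G-line HET replicate 3 (adjusted p = 0.112), the A-line HET call without WT replicate 3 (adjusted p = 0.0604) and the A-line HOM call without WT replicate 1 (adjusted p = 0.0551), WT replicate 2 (adjusted p = 0.0549) or WT replicate 3 (adjusted p = 0.103). Syvn1 itself was not called (G-line HOM 0.04 ± 0.16, adjusted p = 0.885), nor were Edem2, Derl1, Derl3 and Selenos in any comparison, at log2 fold changes of 0.29, 0.15, 0.16 and 0.28 in G-line HOM. Derl3 had at most 16 counts in a library.

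Herpud1, a membrane protein of the degradation complex, was singled out after its values were seen. It was at 158, 199 and 163 CPM in WT, 161, 209 and 193 CPM in G-line HET and 71.0, 101 and 132 CPM in G-line HOM, and 166, 83.4 and 178 CPM in A-line HET and 182 CPM in A-line HOM. G-line HOM replicate 1 and A-line HET replicate 2 were the lowest of the 13 libraries. The clock gene Arntl, which cycles with time of day, reached 24.6 CPM in the former and 29.04 CPM in the latter, and 1.17 to 5.28 CPM elsewhere. Herpud1 was not called in G-line HOM (-0.78 ± 0.29, adjusted p = 0.0758). Without both of these libraries it was at -0.57, adjusted p = 0.0171, which passed the threshold, and DESeq2 gave -0.78, adjusted p = 0.00942. It was at -0.46, adjusted p = 0.346, without the libraries with atrial transcripts and -0.65, adjusted p = 0.37, with the shared pair left out. Without G-line HOM replicate 1 alone it was at -0.57, adjusted p = 0.211, and without replicate 3 at -1.01, adjusted p = 0.0387. The part of sampling time was not tested.

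The secreted stress factors Manf and Creld2 are released when ER calcium or folding is disturbed. Manf was at 16.7, 12.98 and 14.3 CPM in WT, 11.8, 11.1 and 12.3 CPM in G-line HET and 10.7, 13.1 and 12.5 CPM in G-line HOM, and 8.59, 11.6 and 8.03 CPM in A-line HET and 10.9 CPM in A-line HOM. Each mutant group had its mean below WT, and A-line HET was lowest, with a log2 fold change of -0.64 ± 0.15, adjusted p = 0.0191. That call missed the threshold on omission of WT replicate 1 (adjusted p = 0.0941), WT replicate 3 (adjusted p = 0.0585) or A-line HET replicate 3 (adjusted p = 0.101). The value in G-line HOM was -0.28 ± 0.15, adjusted p = 0.189. Creld2 was not called in any comparison (G-line HOM 0.17 ± 0.16, adjusted p = 0.477). Sec61b, a small subunit of the Sec61 channel, was measured at 1.97 to 5.45 CPM and was not called in any comparison (0.43 ± 0.29, adjusted p = 0.319 in G-line HOM).

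Homozygous and heterozygous G-line samples were compared directly, so that WT levels do not enter the difference. The WT libraries still entered the scaling and the shared spread, and the number of calls varied with the treatment of the shared pair. Eif2ak3, Xbp1 and P4hb were higher in G-line HOM and no gene was lower, 9.09% of the 33 beside 14.6% of all genes called (6.22% higher and 8.42% lower). The median log2 fold change was 0.17 for the 33 and 0.04 over all genes, and 27 of 33 were above 0, beside 53.8% of all genes. Genes that were lower than WT in G-line HOM were not called between the groups: Canx was at -0.05 ± 0.10, adjusted p = 0.765, Calr at 0.03 ± 0.10, adjusted p = 0.85, Hsp90b1 at 0.03 ± 0.10, adjusted p = 0.868, Hspa5 at -0.13 ± 0.12, adjusted p = 0.498, Hyou1 at 0.04 ± 0.10, adjusted p = 0.833, and Sel1l at -0.07 ± 0.08, adjusted p = 0.596. Without G-line HOM replicate 3 the 3 calls became 5, without G-line HOM replicate 2 they became 0, and without G-line HET replicate 2 or G-line HOM replicate 1 they became 1. Between the heterozygotes of the lines, DESeq2 called none of the 33 genes and 252 of all genes. With edgeR, too, no gene of the 33 was called, beside 0.0284% of all genes. At an unadjusted p under 0.05, which 13.3% of all genes reached, there were 2, Ern1 (0.24 ± 0.11, adjusted p = 0.362) and Edem2 (0.38 ± 0.17, adjusted p = 0.373).

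Other genes of ER function were taken from 10 lists. The list of the PERK and ATF4 branch, whose products carry out the integrated stress response, had 15 of 26 genes higher and 2 lower in G-line HOM, with a median log2 fold change of 0.65. That is 65.4% called, beside 26.4% of all genes. It had 4 higher and 1 lower in G-line HET (19.2%, beside 7.52% of all genes) and 8 and 1 in A-line HET (34.6%, beside 7.96%). In the A-line HOM library its median log2 fold change was 0.81. The summed level of the 26 genes was not higher in most mutant groups. It was 920 to 933 CPM in WT, 845 to 878 CPM in G-line HET, 891 to 934 CPM in G-line HOM, 811 to 886 CPM in A-line HET and 1151 CPM in A-line HOM. Immediate-early genes, which are induced rapidly by many stimuli, moved with this list and share Atf3 with it. Their summed level over 11 genes was 57.2 to 78.2 CPM in WT, 119.7 to 177 CPM in G-line HET, 131 to 206 CPM in G-line HOM, 104 to 144 CPM in A-line HET and 556 CPM in A-line HOM. Of 10 tested, 6 were higher in G-line HOM, 3 in G-line HET and 3 in A-line HET, and none was lower. Of all genes, 13.1%, 3.97% and 3.99% were higher in these groups. In the A-line HOM library the median log2 fold change of the immediate-early genes was 3.31. Atf3 itself had a log2 fold change of 2.45 ± 0.46, adjusted p = 0.00357, in G-line HOM and 5.47 ± 0.54, adjusted p = 0.000855, in the A-line HOM library. The part of the immediate-early genes in this list was not tested. Atf4, its central factor, was at 39.3, 40.1 and 42.7 CPM in WT and 82.3, 65.6 and 62.7 CPM in G-line HET and 102, 105 and 97.9 CPM in G-line HOM (1.32 ± 0.11, adjusted p = 4.08e-06 in G-line HOM). Ppp1r15a, the phosphatase subunit that restores translation, was at 10.05, 9.99 and 9.34 CPM in WT and 14.6, 12.6 and 11.6 CPM in G-line HET and 27.8, 23.8 and 19.9 CPM in G-line HOM (1.28 ± 0.14, adjusted p = 3.46e-05). Vldlr, a lipoprotein receptor, was lower (-0.85 ± 0.09, adjusted p = 1.75e-05).

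Of the genes of collagen folding and modification, 8 of 19 were higher and 1 lower in G-line HOM (47.4% called, beside 26.4% of all genes). Among the higher genes were the prolyl hydroxylases P3h2 (1.80 ± 0.29, adjusted p = 0.000498) and P4ha1 (0.66 ± 0.11, adjusted p = 0.000608) and the prolyl isomerase Fkbp14 (0.68 ± 0.11, adjusted p = 0.000525). The counts were 2 higher and 0 lower in G-line HET (10.5%, beside 7.52% of all genes) and 1 and 0 in A-line HET (5.26%, beside 7.96%). In the A-line HOM library the median log2 fold change of this list was -0.04. The fibroblast marker values given with P4hb apply here too. Of other ER oxidoreductases, 3 of 13 were higher and 1 lower in G-line HOM (30.8%, near the 26.4% of all genes), with Txndc5 (0.83 ± 0.11, adjusted p = 9.47e-05) and the sulfhydryl oxidase Qsox1 (0.97 ± 0.13, adjusted p = 0.000126) higher and Tmx2 (-0.79 ± 0.14, adjusted p = 0.000936) lower.

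In the translocon and signal peptide list, which concerns entry into the ER, 7 of 22 genes were higher and 1 lower in G-line HOM. That is 36.4% called, beside 26.4% of all genes. Spcs3 of the signal peptidase (0.84 ± 0.16, adjusted p = 0.00186) and Srp14 of the signal recognition particle (0.45 ± 0.11, adjusted p = 0.00541) were higher, and Ssr3 of the translocon-associated complex was lower (-0.44 ± 0.09, adjusted p = 0.00179). Among genes of ER retention and COPII transport, which carry folded cargo onward, 5 of 20 were higher and 1 lower (30%, near the share of all genes), with the retrieval receptor Kdelr3 (1.12 ± 0.15, adjusted p = 0.000145), the coat subunit Sec31a (0.38 ± 0.08, adjusted p = 0.0022) and the SNARE Sec22b (0.52 ± 0.12, adjusted p = 0.00574) named by smallest adjusted p. In N-glycosylation 2 of 16 were higher and none lower (12.5% called, beside 26.4% of all genes). They were the oligosaccharyltransferase subunit Stt3a (0.94 ± 0.11, adjusted p = 4.95e-05) and Uggt2 (0.40 ± 0.12, adjusted p = 0.0196). Of 20 other degradation genes 15% were called, beside 26.4% of all genes. Among them 1 was higher, Ubxn4 (0.35 ± 0.08, adjusted p = 0.00483), and 2 were lower, the ubiquitin ligases Rnf5 (-0.53 ± 0.14, adjusted p = 0.0107) and Marchf6 (-0.27 ± 0.08, adjusted p = 0.0251).

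Regulators of IRE1, ATF6 and their stress output had 5 of 18 genes higher and 2 lower in G-line HOM (38.9%, beside 26.4% of all genes). Creb3 (0.85 ± 0.10, adjusted p = 6.13e-05), Armcx3 (0.95 ± 0.14, adjusted p = 0.000205) and Mbtps2, the protease that completes ATF6 cleavage (0.57 ± 0.12, adjusted p = 0.00258), were higher. Luminal and junctional proteins of the sarcoplasmic reticulum had 7 of 15 higher and 3 lower (66.7%, beside 26.4% of all genes). Casq1, the calsequestrin of skeletal muscle, was at 9.15, 16.4 and 7.96 CPM in WT and 325, 255 and 240.1 CPM in G-line HET and 267, 264 and 364 CPM in G-line HOM (4.74 ± 0.32, adjusted p = 1.16e-05). Sdf4 (0.80 ± 0.11, adjusted p = 0.000189) and Calu (0.41 ± 0.08, adjusted p = 0.00221), calcium-binding proteins of the secretory pathway, were higher. Of cytosolic heat shock genes 3 of 21 were higher and 2 lower (23.8%, near the share of all genes), with Hsp90aa1 (0.69 ± 0.13, adjusted p = 0.00128) and Dnajb4 (0.43 ± 0.10, adjusted p = 0.00425) higher and the cochaperone Fkbp4 (-1.28 ± 0.17, adjusted p = 0.000136) lower.

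**Figure D5:**
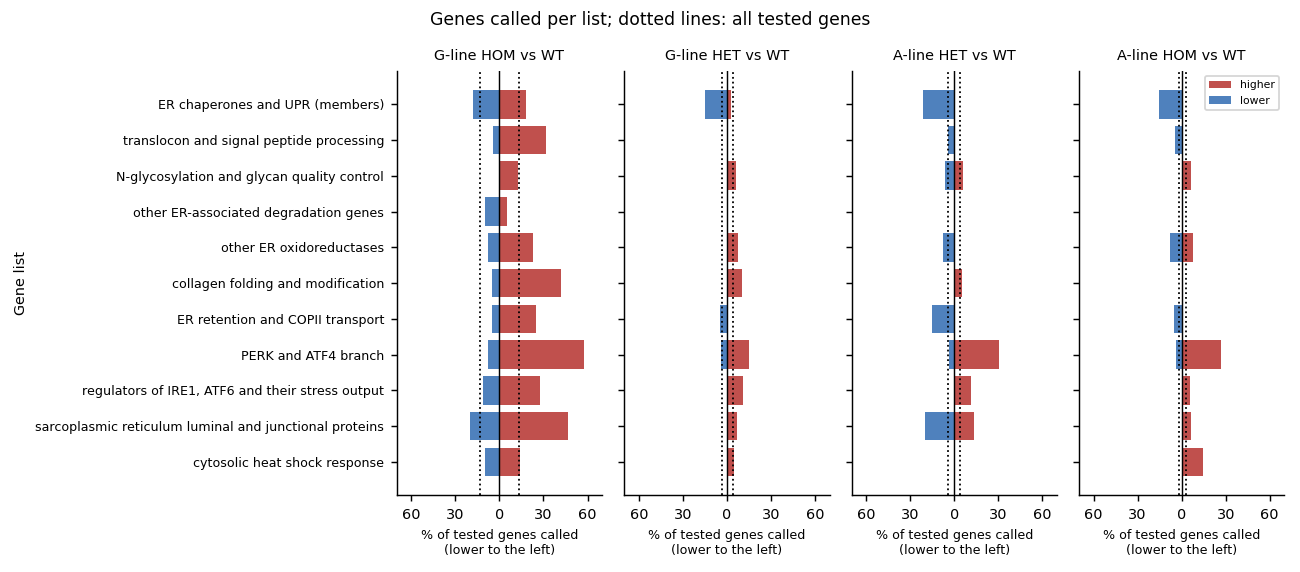
Percent of tested genes called higher (red, to the right) and lower (blue, to the left) than WT for the 33 genes and the 10 further lists (vertical axis), 1 panel per mutant group, with dotted lines at the percent of all tested genes. In G-line HOM the PERK and ATF4 list has 15 higher and 2 lower genes of 26, and the 33 genes have 6 and 6.

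Markers of cells with an extensive ER were also read. B and plasma cell markers, of cells that secrete antibody, summed to 9.36 to 10.4 CPM in WT, 8.38 to 10.6 CPM in G-line HET, 9.02 to 14.7 CPM in G-line HOM and 10.6 to 26.7 CPM in A-line HET, with 10.6 CPM in A-line HOM. The highest was A-line HET replicate 3, where Jchain, the joining chain of secreted antibody, reached 10.3 CPM. Of 7 tested, 1 was higher in G-line HOM and 1 lower in G-line HET, beside 13.1% and 3.54% of all genes. Their part in the ER genes was not tested.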

How the data were processed

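Left ventricle RNA was isolated with TRIzol, cleared of DNA with DNase and sequenced from Illumina TruSeq total RNA Gold libraries, according to the labels. Tools named in the submitters' processing notes are bcl2fastq 2.20.0.422, Trimmomatic 0.39 and STAR 2.7.4a, with the genome mm39 (GRCm39). The authors deposited whole-number counts for each gene symbol, unscaled, in 1 table for WT and 1 for each line. The sources used here do not give the counting program, the annotation or the strand setting, so a gene and an overlapping antisense gene cannot be told apart.

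Genes with at least 0.422 CPM (10 counts in the median library) in at least 3 libraries and a total of at least 15 were kept, 17588 in all. The 13 distinct libraries were scaled by TMM and fitted in edgeR 4.0.16 (R 4.3.3) as 1 mean per group, with 8 residual degrees of freedom and a common biological variation of 17.1%. Tests were robust quasi-likelihood F tests, two-sided, with Benjamini-Hochberg adjustment across all genes and a threshold of 0.05. Log2 fold changes carry an SE, which was derived from the test as the absolute log2 fold change divided by the square root of F. The scripts were tested on simulated data.

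The 33 genes, the lists and the tests were chosen with earlier results of these data known. Values per library are given for up to 12 genes called in G-line HOM, for 5 sensors and factors, for Hspa5 and Hsp90b1, and for up to 5 genes called elsewhere, and the rest are given in brief. Up to 3 genes per list were named by smallest adjusted p in G-line HOM, and promoters were printed for up to 4 of the named genes with an ERSE. Alternatives were DESeq2 1.42.0, its size factors (RLE), other filters, a fit of the compared groups alone, a replicate block, removal of 343 symbols (mitochondrial, ribosomal RNA, Xist, Y-linked), other treatments of the shared pair, removal of 3 libraries with atrial transcripts (WT replicate 2, G-line HOM replicate 1, A-line HET replicate 3) or 2 with shifted clock genes (G-line HOM replicate 1, A-line HET replicate 2), and removal of each library. Library totals without scaling factors were added after seeing the data.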

Additional observations from a re-analysis of the deposited data

How the results depend on the processing

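For 33 gene results called in a comparison, 612 alternative values were computed: 398 stayed called, 214 kept their direction and missed the threshold, and none changed direction. Of 21 results in G-line HOM that were not called, 6 genes changed sign under some alternative. With the shared pair left out, Pdia3 was at -0.053, Syvn1 at -0.114 and Ero1b at 0.019. With the pair as A-line HOM they were at -0.048, -0.109 and 0.023. Without scaling factors Ero1b was at 0.004, Dnajb9 at 0.124 and Atf6b at 0.006. Dnajb9 was at 0.049 without the libraries with atrial transcripts and at 0.06 without those with shifted clock genes. Over omissions of single libraries Pdia3 lay from -0.02 to 0.113, Syvn1 from -0.067 to 0.117, Dnajb9 from -0.108 to 0.06 and Derl3 from -0.051 to 0.306. The cause was not tested.

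The number of the 33 genes called was 12 in G-line HOM, 7 with the shared pair left out and 1 with it as A-line HOM, where fewer WT libraries are compared. In G-line HET it was 6, with 3 under RLE factors, 2 with no filter and 0 with the pair left out, as A-line HOM or in both groups. In A-line HET it was 7, with 4 in a fit of the compared groups only, 2 without the libraries with atrial transcripts and 0 under each of the other treatments of the pair. In A-line HOM it was 5, with 8 under DESeq2, 8 in a fit of the compared groups only, 1 with the pair left out and 0 with it as A-line HOM or in both groups. Between G-line HOM and G-line HET it was 3, with 1 when the pair was A-line HOM, 1 without the libraries with atrial transcripts and 13 without scaling factors. Omission of single libraries gave 8 to 12 genes in G-line HOM, 0 to 2 in G-line HET, 1 to 11 in A-line HET, 1 to 3 in A-line HOM, 0 to 5 between the G-line groups and 0 to 0 between the heterozygotes. With the replicate number as a block, 2 genes were called in G-line HET and 3 in A-line HOM. Same-numbered libraries did not deviate together (r from -0.27 to 0.15 in 18 pairs, 2 of them over 0.1), and the number was not used as a pairing. With 3 libraries per group these correlations cannot exclude a batch shared by number. Without scaling factors the median of all genes moved to 0.17 in G-line HOM, 0.15 in A-line HET and 0.06 in A-line HOM. Depth was lowest in the A-line, at 12959087 to 17507813 counts, and A-line HOM rests on 1 library.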
